A study of Mus musculus with 9 samples.

Results

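The genes described here mark the blood vessels of the brain. They are 39 genes chosen by symbol from the 54532 gene IDs of the count tables, 28 of endothelial cells and the blood-brain barrier (Cldn5 to Pltp) and 11 of mural cells, which are pericytes and smooth muscle cells (Pdgfrb to Notch3). All 39 were found in the tables, and 37 of them had enough counts for a test. Tagln and Cnn1, both smooth muscle genes, did not. The libraries hold messenger RNA of mouse striatum, the input nucleus of the basal ganglia, in 3 groups of 3: mice lacking cGAS (cGAS KO), mice lacking STING (STING KO) and wild-type mice (WT). All groups are on a C57BL/6J background, and both knockouts were made with CRISPR-Cas9. The labels name no promoter or cell type that would limit the deletions to vessels. Per the text of the series the mice had undergone ischemic stroke, which all 3 groups then share. The labels used here give no age, no sex, no time after stroke and no side of the brain, and uninjured animals were not analysed here. Nothing in the labels says that the replicates are separate animals, so a p-value here measures only how these libraries spread, which may be technical. Whether the cells themselves were fewer or held less RNA of a gene cannot be told apart in bulk tissue.

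Endothelial cells of the brain are sealed to each other by tight junctions, keep vesicle transport low, and carry pumps and carriers that decide what enters the tissue. Pericytes sit on the capillary wall within the same basement membrane and are held there by PDGF-B from the endothelium acting on the receptor encoded by Pdgfrb. Smooth muscle cells surround arterioles and set blood flow. cGAS senses DNA in the cytosol and makes cGAMP, and STING is the receptor for cGAMP that starts an interferon response. Ischemia opens the barrier, and endothelial cells are among the cells that contain this pathway, so the comparisons ask how the vascular transcripts differ when either protein is missing.

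RefSeq start-site windows were at hand for 26 of the 39 genes, each running from 250 bases before to 50 bases after the start site on GRCm38.p6. Shown are those of Slco1a4 (chr6:141856171-141856470, minus strand) and Abcg2 (chr6:58584283-58584582, plus strand), the transporters whose libraries lay apart from WT in both knockouts, of Kdr (chr5:75978406-75978705, minus strand), the VEGF receptor that was low in STING KO, and of Cldn5 (chr16:18776597-18776896, plus strand), the main claudin of the barrier. Capitals mark the core bound by ETS factors, GGAAG, or its reverse complement, CTTCC.
Slco1a4: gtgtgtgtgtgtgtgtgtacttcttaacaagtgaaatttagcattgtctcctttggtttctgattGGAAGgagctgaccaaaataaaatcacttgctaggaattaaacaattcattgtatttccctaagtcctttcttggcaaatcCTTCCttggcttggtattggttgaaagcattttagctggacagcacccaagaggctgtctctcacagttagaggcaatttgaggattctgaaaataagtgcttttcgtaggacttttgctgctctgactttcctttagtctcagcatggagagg
Abcg2: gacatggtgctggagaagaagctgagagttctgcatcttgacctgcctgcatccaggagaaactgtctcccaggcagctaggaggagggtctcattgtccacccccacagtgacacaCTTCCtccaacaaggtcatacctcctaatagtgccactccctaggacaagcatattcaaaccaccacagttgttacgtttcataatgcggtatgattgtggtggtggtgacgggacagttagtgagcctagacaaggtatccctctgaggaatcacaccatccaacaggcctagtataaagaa
Kdr: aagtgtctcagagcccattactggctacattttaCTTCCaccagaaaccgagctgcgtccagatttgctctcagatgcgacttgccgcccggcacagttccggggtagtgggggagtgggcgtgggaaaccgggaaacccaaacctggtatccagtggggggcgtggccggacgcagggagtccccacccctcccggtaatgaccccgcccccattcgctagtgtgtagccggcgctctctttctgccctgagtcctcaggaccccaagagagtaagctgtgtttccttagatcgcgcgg
Cldn5: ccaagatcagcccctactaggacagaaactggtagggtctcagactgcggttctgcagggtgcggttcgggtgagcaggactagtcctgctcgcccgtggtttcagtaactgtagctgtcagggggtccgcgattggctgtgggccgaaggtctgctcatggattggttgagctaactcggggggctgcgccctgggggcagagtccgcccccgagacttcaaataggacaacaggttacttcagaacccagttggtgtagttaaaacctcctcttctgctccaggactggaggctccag
ETS factors such as Erg and Fli1 are known regulators of endothelial genes. The window of Slco1a4 holds 2 such cores, those of Abcg2 and Kdr hold 1 each, and that of Cldn5 holds 0. On either strand, GGAAG was in 15 of 19 endothelial windows (78.9%) and in 4 of 7 mural windows (57.1%), beside 71.4% of all 32851 windows of this length. The E box CANNTG was in 17 of the 19 (89.5%) and 6 of the 7 (85.7%), beside 72.3% of all windows, and the core of SOX factors, ACAAT, in 4 (21.1%) and 2 (28.6%), beside 31% of all. The windows differ in CpG dinucleotides. Those of Slco1a4, Slco1c1 and Ly6c1 hold 1 each, Abcb1a and Emcn 2 each, and Abcg2 and Tek 3 each. Egfl7 holds 5, Eng, Rgs5, Acta2 and Cnn1 6 each, Tie1 and Itm2a 7 each, Vtn 9 and Spock2 10. Cldn5 holds 12, Pltp 13, Abcc9 16, Ocln 17, Kdr 19, Mfsd2a 22, Notch3 25, Anpep 28, Flt1 29 and Tjp1 31. The median over all windows was 7. Of all windows, 31.4% had 3 or fewer and 39.6% had 12 or more. A difference of the vascular windows from these was not tested.

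Library totals ranged from 14129021 to 21286775 counts. Levels below are counts scaled to library size by TMM and given as CPM, the usual unit for counts relative to the library total, and a mean is given ± SD over the 3 libraries of a group. In each group 1 library stood apart by holding few genes with low counts: replicate 2 of cGAS KO, replicate 2 of STING KO and replicate 3 of WT had 2280 to 4723 genes with 1 to 9 counts, against 7096 to 7927 in the other 6 libraries. These 3 are called the libraries of low complexity, and each comparison is given with all 9 libraries and with the other 6. The targeted genes had few counts. Cgas was at 0.262 to 1.10 CPM in cGAS KO and at 1.40 to 3.18 CPM in WT, and Sting1 was at 1.05 to 2.18 CPM in STING KO and at 1.34 to 4.06 CPM in WT, where the ranges overlapped.

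The labelled tissue and the vascular lists were checked against marker genes. Medium spiny neuron markers, which define striatum, summed to 3452 CPM in WT replicate 3 and to 6115 to 7642 CPM in the other 8 libraries. Cortical neuron markers summed to 63.5 CPM in WT replicate 1, 412 CPM in WT replicate 2 and 1033 CPM in WT replicate 3, the highest of all libraries, beside 71.9 to 443 CPM in cGAS KO and 235 to 594 CPM in STING KO. Astrocyte markers were also highest in WT replicate 3, at 7921 CPM against 4319 to 5604 CPM in the other 8, and oligodendrocyte markers ran from 7333 CPM there to 17469 CPM in WT replicate 1. The WT libraries thus differed in markers of other cell types, and the part of this in the vascular values was not tested. The 6 defining endothelial markers were Cldn5, Pecam1, Cdh5, Flt1, Tek and Tie1. They summed to 178 to 222 CPM in cGAS KO, 168 to 174 CPM in STING KO and 167 to 179 CPM in WT. The summed level in STING KO thus lay within the WT range, but Flt1 was the largest part of the sum. It made up 103 of 167 CPM in WT replicate 3. As a mean of log2 CPM, with equal weight per gene, the 6 were at 4.44 to 4.76, 4.14 to 4.49 and 4.07 to 4.54 in the same order. The 5 defining pericyte markers (Pdgfrb, Rgs5, Abcc9, Vtn and Higd1b) summed to 230 to 302, 201 to 273 and 247 to 285 CPM in the same order. Rgs5 was the largest part of this sum, at 197 of 285 CPM in WT replicate 3. The 4 defining smooth muscle markers (Acta2, Tagln, Myh11 and Cnn1) summed to 11.5 to 27.3, 10.7 to 15 and 13.9 to 19.2 CPM. Of all these, Tagln and Cnn1 alone were at 0 in some libraries. Markers of choroid plexus, an epithelium of the neighbouring ventricle, summed to 27.9 to 216 CPM in cGAS KO, 62.4 to 464 CPM in STING KO and 31.7 to 2755 CPM in WT, the last value in WT replicate 1. Markers of fibroblasts and meninges summed to 25.8 to 49.0 CPM over all libraries, and those of leukocytes to 5.13 to 7.79 CPM.

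In WT striatum, Spock2 and Bsg had the highest levels per length of all 39 genes. Levels per length are CPM divided by the kilobases of annotated exons. Spock2, a secreted proteoglycan also made by neurons, was at 136 ± 6.42 CPM per kb, and Bsg, a membrane glycoprotein of barrier endothelium and of many other cells, at 127 ± 60.6 CPM per kb. Together they made up 50.4% to 59.9% of the summed CPM of the endothelial genes in every library, so a sum over this list is mainly a reading of these 2. The next was Rgs5, a regulator of G protein signalling that marks pericytes, at 37.2 ± 5.61 CPM per kb, below every WT value of Bsg. Itm2a, a membrane protein enriched in brain endothelium, followed at 26.7 ± 11.4. Tjp1, Vtn, Pltp, Ly6c1 and Slco1a4 lay between 18.9 and 19.2 CPM per kb and did not differ beyond their spread.

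Further down the order, Cldn5 was at 10.5 ± 6.08, Abcb1a at 9.67 ± 1.64, Flt1 at 6.76 ± 0.834, Pdgfrb at 6.53 ± 0.45 and Notch3 at 5.83 ± 2.27 CPM per kb. Cdh5, Tek and Pecam1 had close levels of 3.57, 3.55 and 3.40 CPM per kb. The contractile genes of smooth muscle were low, with Acta2 at 2.66, Myh11 at 1.40, Tagln at 0.155 and Cnn1 at 0.118 CPM per kb. Foxq1, a transcription factor of brain endothelium, was the lowest endothelial gene at 0.353 CPM per kb. Between neighbours in this order, the WT libraries were fully apart at 4 places: Bsg above Rgs5, Abcb1a above Podxl, Notch3 above Cdh5, and Anpep above Foxq1. At the other steps the neighbours overlapped.

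**Figure D1:**
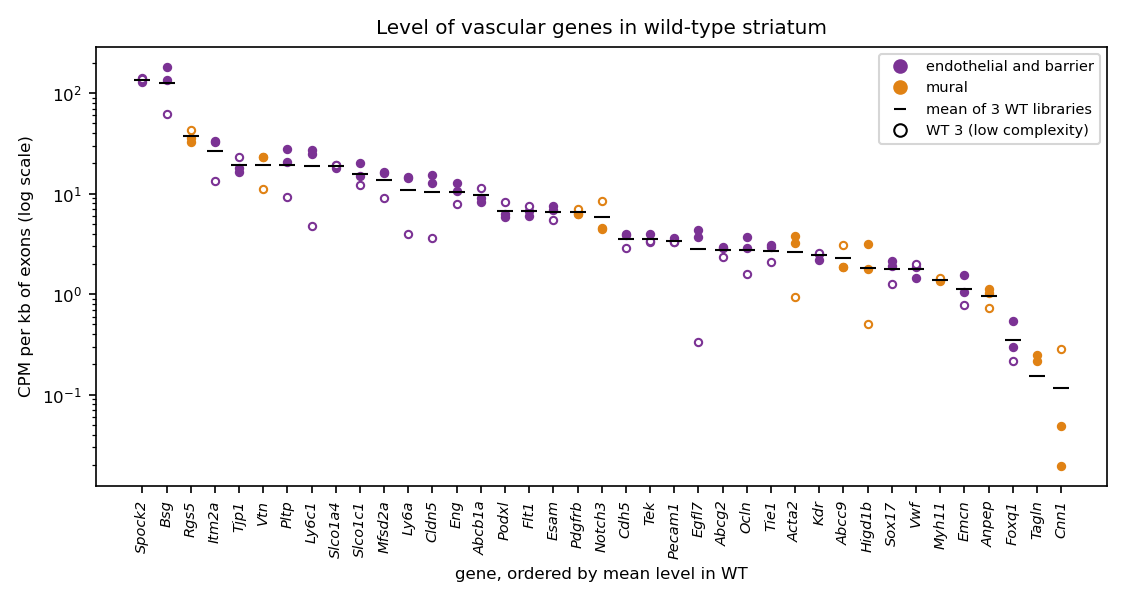
Level of each of the 39 vascular genes in the 3 WT libraries, in CPM per kilobase of exons on a log axis, ordered by the mean (dash). Points are libraries, the hollow point is WT replicate 3, and the value of 0 of Tagln in that library is not drawn. Spock2 and Bsg have the highest means, and Tagln and Cnn1 are the lowest.

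No vascular gene passed the test over all genes in any comparison. By edgeR's quasi-likelihood test with Benjamini-Hochberg adjustment, 0 of 37 vascular genes passed in cGAS KO against WT, 0 of 37 in STING KO against WT and 0 of 37 in STING KO against cGAS KO. The background was 0 of 17821 genes (0.00%) in each comparison, so the count says nothing particular about vessels. At an unadjusted p under 0.05 there were 1, 5 and 0 vascular genes, beside 361 (2.03%), 291 (1.63%) and 258 (1.45%) of all genes. In cGAS KO these were 0 higher, beside 1.04% of all genes, and Slco1a4 lower, beside 0.982%. In STING KO against WT, Vwf was higher, beside 0.898%, and Slco1a4, Abcg2, Kdr and Myh11 were lower, beside 0.735%. Between the knockouts 0 were higher or lower, beside 0.825% and 0.623%. DESeq2 called 1, 10 and 8 genes in all and limma-voom 0, 0 and 0, and 0 vascular genes were among them. With the 6 libraries, edgeR called 0, 4 and 3 of 17657 genes (0.00%, 0.0227% and 0.0170%), again with 0 vascular genes. There the vascular genes at an unadjusted p under 0.05 numbered 5, 7 and 4, beside 4.20%, 6.90% and 3.70% of all genes. Vwf, Podxl, Pdgfrb and Vtn were higher in cGAS KO than in WT, beside 2.44% of all genes, and Mfsd2a lower, beside 1.77%. All 7 in STING KO against WT were lower (Ocln, Slco1a4, Slco1c1, Abcg2, Mfsd2a, Itm2a and Rgs5), beside 2.89%, and 0 were higher, beside 4.02%. All 4 between the knockouts were lower in STING KO (Mfsd2a, Itm2a, Pdgfrb and Rgs5), beside 1.70%, and 0 were higher, beside 1.99%.

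The precision of these comparisons was limited. The median SE of a vascular gene's log2 fold change was 0.29 to 0.30 over the 3 comparisons with 9 libraries, and 0.18 with 6. The 95% interval lay wholly within a 2-fold change for 24, 21 and 24 of the 37 genes with 9 libraries, and for 33, 27 and 31 with 6. For Egfl7 the SE was 0.84, and its interval covered a 2-fold change in either direction in all 3 comparisons.

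The endothelial list had a median log2 fold change of 0.04 in cGAS KO and -0.12 in STING KO, both relative to WT, and of -0.15 in STING KO relative to cGAS KO, while the median of all genes was -0.01, 0.00 and 0.01. Positive fold changes were found for 15, 12 and 8 of its 28 genes. Of all genes tested, 51.5%, 50.6% and 48.9% were negative in the same order, the background for every count of signs below. With 6 libraries the medians were -0.01, -0.17 and -0.22. The 9 tested mural genes had medians of 0.07, 0.00 and -0.22, with 5, 4 and 3 positive values, and with 6 libraries 0.13, -0.03 and -0.41. WT libraries enter 2 of the 3 comparisons, so these values are not independent of each other.

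Between 0 and 5 of the 37 vascular genes had libraries that did not overlap between groups in a given direction. With so few genes, 1 gene more or fewer would move some of these shares to the other side of the share of all genes. The counts are given as a description. None of these shares was tested. In cGAS KO, Spock2, Vwf and Vtn lay above every WT library (3 of 37, beside 4.0% of all genes) and Slco1a4 and Abcg2 below (2 of 37, beside 4.0%). In STING KO, Spock2 alone lay above WT (1 of 37, beside 3.40%), and Pecam1, Kdr, Slco1a4, Abcg2 and Myh11 lay below (5 of 37, beside 3.67%). Between the knockouts, Kdr, Eng, Abcg2, Spock2 and Pdgfrb were lower in STING KO in every library (5 of 37, beside 3.72%), and 0 of 37 were higher, beside 3.63% of all genes.

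**Figure D2:**
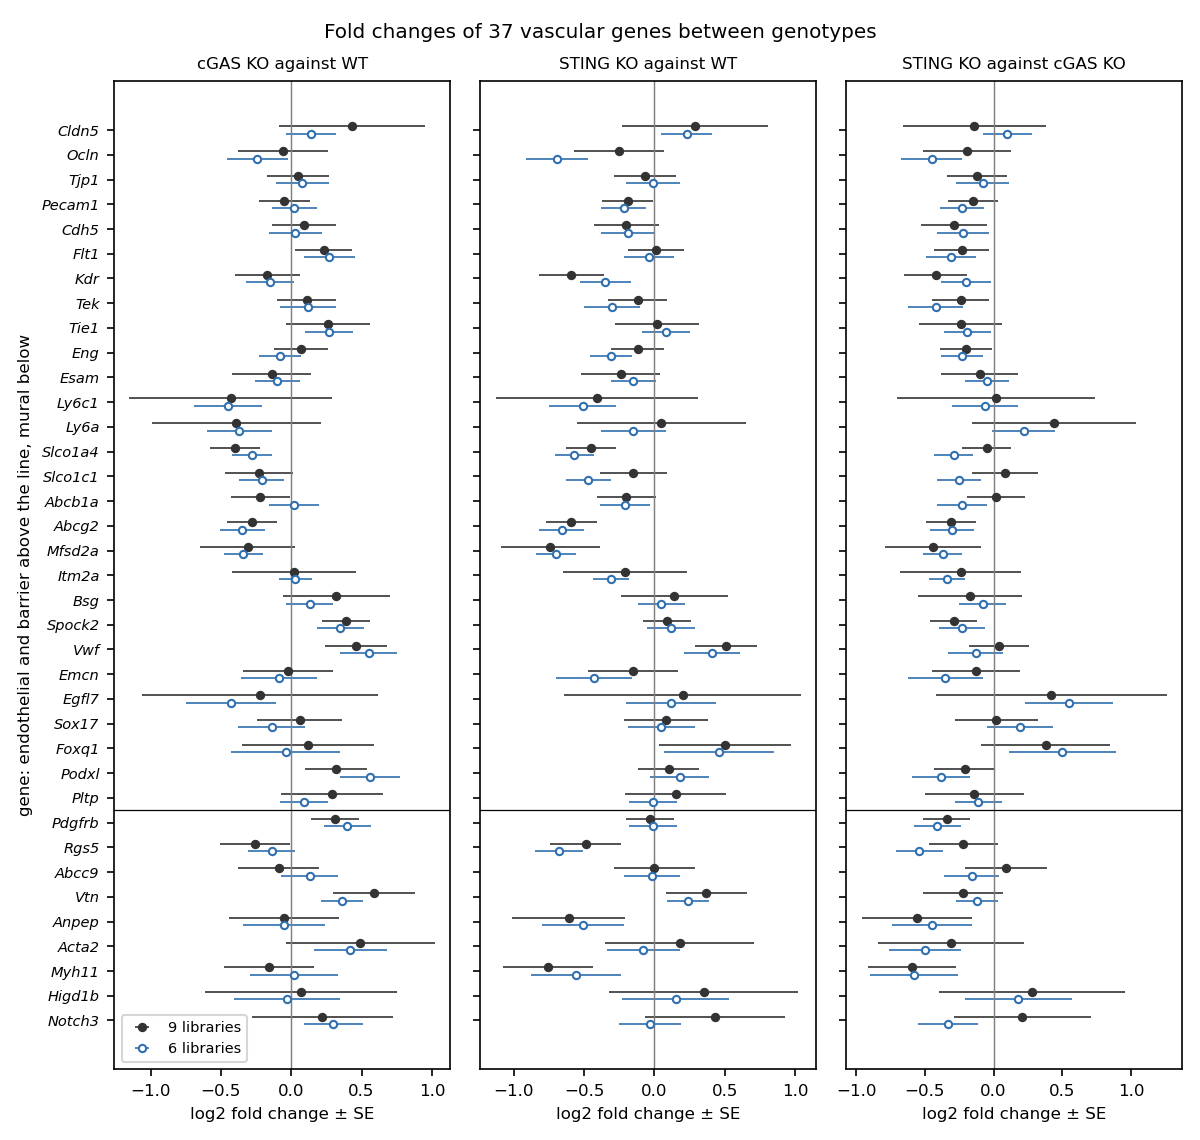
Log2 fold change with its SE of the 37 tested vascular genes in each of the 3 comparisons, with all 9 libraries (filled) and with the 6 that remain without those of low complexity (hollow). Endothelial and barrier genes are above the horizontal line and mural genes below it. The bars of Egfl7, Ly6c1, Ly6a and Higd1b are among the widest with 9 libraries and shorten with 6.

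All 5 barrier transporters had negative fold changes in both knockouts against WT, with medians of -0.28 in cGAS KO and -0.45 in STING KO, while 51.5% and 50.6% of all genes were negative. Both comparisons share the WT libraries, and between the knockouts 3 of 5 were negative. With 6 libraries 4 of 5 and 5 of 5 were negative, with medians of -0.28 and -0.57. The signs also depended on single libraries: without WT replicate 1, Slco1c1 was at -0.01 in cGAS KO and at 0.07 in STING KO. None of the 5 passed the test over all genes, and the group of 5 was formed by function and not tested as a group.

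Slco1a4, an organic anion carrier of the endothelial membranes (chromosome 6, 141805440 to 141856199, minus strand, GRCm38, 17 exonic blocks), was at 116, 124 and 124 CPM in the WT libraries, at 89.8, 78.5 and 107 CPM in cGAS KO and at 78.0, 105 and 83.3 CPM in STING KO. Both knockouts lay wholly below WT, and the knockouts overlapped with each other. The log2 fold change was -0.40 in cGAS KO (SE 0.18, unadjusted p = 0.0491) and -0.45 in STING KO (SE 0.18, unadjusted p = 0.031) by edgeR, with an adjusted p of 1 in both. With 6 libraries the values were -0.28 (unadjusted p = 0.0694) and -0.57 (SE 0.14, unadjusted p = 0.00285, adjusted p = 0.558). Over all alternatives Slco1a4 stayed negative against WT, from -0.52 to -0.28 in cGAS KO and from -0.58 to -0.36 in STING KO.

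Abcg2, the breast cancer resistance protein that pumps drugs back into the blood (chromosome 6, 58584523 to 58695676, plus strand), was at 23.3, 24.3 and 19.2 CPM in WT, at 19.1, 17.8 and 18.1 CPM in cGAS KO and at 14.5, 14.3 and 15.6 CPM in STING KO. The 3 groups did not overlap with each other, with STING KO lowest and WT highest. In STING KO the log2 fold change against WT was -0.59 (SE 0.18, 95% interval -0.99 to -0.19, unadjusted p = 0.00836 and adjusted p = 1 by edgeR), and it was -0.66 with 6 libraries (unadjusted p = 0.00276, adjusted p = 0.558). In cGAS KO it was -0.28 (unadjusted p = 0.145), and between the knockouts -0.31 (SE 0.18, unadjusted p = 0.116). The gap between cGAS KO replicate 1 and WT replicate 3 was small, 19.1 against 19.2 CPM.

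Mfsd2a, the lipid carrier that brings docosahexaenoic acid into the brain and keeps vesicle transport low (chromosome 4, 122946850 to 122961188, on the minus strand), had levels of 37, 35.9 and 20.5 CPM in WT, at 29.9, 17.9 and 27.8 CPM in cGAS KO and at 23.1, 10.9 and 21.7 CPM in STING KO. In every group the library of low complexity was the lowest, and with it the groups overlapped. For STING KO relative to WT, edgeR gave a log2 fold change of -0.74 (SE 0.35, unadjusted p = 0.058) with all libraries. With 6 it was -0.70 (SE 0.14, unadjusted p = 0.000985), and the adjusted p of 0.447 was the lowest of the 37 genes over the alternatives run, which gave Mfsd2a an adjusted p between 0.447 and 1 in this comparison. The corresponding values with 6 libraries were -0.34 in cGAS KO against WT (unadjusted p = 0.0425) and -0.37 between the knockouts (unadjusted p = 0.033), neither of which passed over all genes (adjusted p = 0.971 and 0.926).

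The remaining transporters overlapped between groups. Abcb1a, which encodes P-glycoprotein, was at 45.8, 50.1 and 63.0 CPM in WT, at 41.6, 39.5 and 55.4 CPM in cGAS KO and at 37.7, 55.1 and 45.3 CPM in STING KO, with fold changes of -0.22 and -0.20 on the log2 scale against WT. Of its 50-base stretches 17.6% are shared with Abcb1b or Abcb4, so its counts depend on how shared reads were treated. Slco1c1, the carrier of thyroxine into the brain, which astrocytes also express, was at 104, 77.5 and 63.9 CPM in WT, at 73.2, 52.7 and 83.7 CPM in cGAS KO and at 65.0, 89.4 and 66.8 CPM in STING KO. Its log2 fold change in STING KO was -0.15 with 9 libraries and -0.47 with 6 (unadjusted p = 0.0211, adjusted p = 0.679 by edgeR). WT replicate 1, which had the highest Slco1c1, was also the library with 2755 CPM of choroid plexus markers, and the part of that tissue in this value was not tested.

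**Figure D3:**
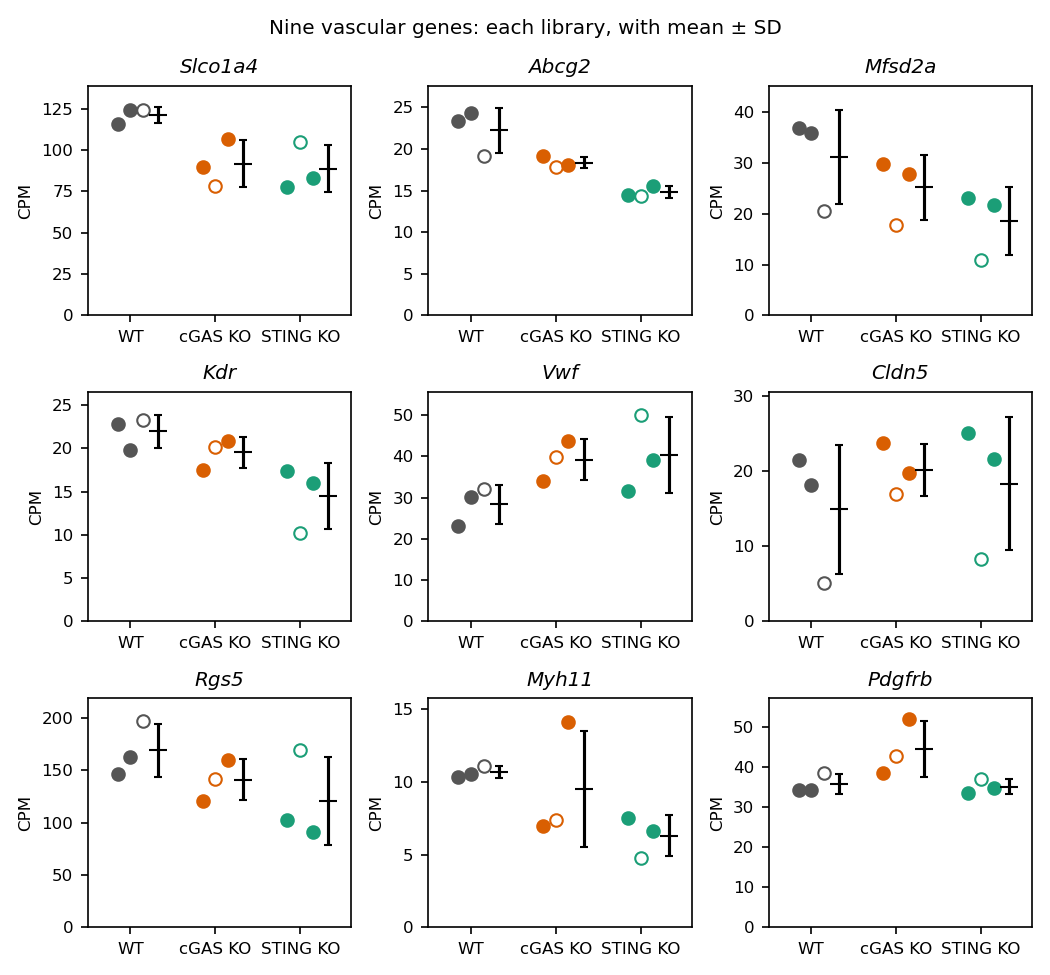
CPM of 9 vascular genes in every library (points, hollow for the libraries of low complexity), with the mean and SD of each group of 3 beside them. Slco1a4 and Abcg2 lie lower in both knockouts than in WT, and Kdr and Myh11 lie lower in STING KO. Cldn5 and Mfsd2a are lowest in the hollow library of each group, and Vwf lies higher in cGAS KO than in WT.

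Of the 5 receptors of endothelial growth factors, 4 had positive fold changes in cGAS KO against WT, with a median of 0.11, and none passed the test over all genes. In STING KO against WT the median was -0.12 with 2 of 5 positive. In STING KO against cGAS KO all 5 were negative in both fits, with a median of -0.24, and of -0.23 with 6 libraries. The 5 values come from the same libraries and are not separate observations. Without cGAS KO replicate 3, Flt1 was at -0.13 and Tek at -0.09. Of all genes, 48.9% were negative in that comparison, and 49.2% with 6 libraries. Kdr, the main signalling receptor for VEGF-A (chromosome 5, 75932827 to 75978458, minus strand, 29 exonic blocks), was at 22.8, 19.8 and 23.3 CPM in WT, at 17.5, 20.2 and 20.9 CPM in cGAS KO and at 17.4, 10.2 and 16.0 CPM in STING KO. STING KO lay below both other groups, with 17.4 CPM at its highest against 17.5 CPM at the lowest of cGAS KO, and the low value of 10.2 CPM came from its library of low complexity. By edgeR the log2 fold change against WT was -0.59 (SE 0.23, unadjusted p = 0.0283, adjusted p = 1) with 9 libraries and -0.35 (SE 0.18, unadjusted p = 0.0776) with 6.

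Flt1, the decoy receptor that binds VEGF without strong signalling, was at 80.4, 90.6 and 103 CPM in WT, at 84.9, 115 and 122 CPM in cGAS KO and at 82.4, 109 and 83.9 CPM in STING KO. Its groups overlapped in all 3 comparisons. Tek, the receptor of the angiopoietins, was at 15.7, 18.6 and 15.8 CPM in WT, at 15.8, 16.8 and 21.6 CPM in cGAS KO and at 14.3, 18.2 and 13.5 CPM in STING KO. Its partner Tie1 was at 15.3, 14.5 and 10.3 CPM in WT, at 19.0, 11.8 and 17.0 CPM in cGAS KO and at 16.3, 8.99 and 15.3 CPM in STING KO, with the library of low complexity lowest in each group. Eng, a co-receptor for BMP9 and TGF-beta, was at 51.2, 43.1 and 32.2 CPM in WT, at 40.9, 43.8 and 48.5 CPM in cGAS KO and at 38.7, 40.0 and 37.3 CPM in STING KO. STING KO lay below cGAS KO in Eng, with a log2 fold change of -0.20 (SE 0.19, unadjusted p = 0.326 by edgeR), a difference of about its own error.

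For the junction and adhesion genes, the median log2 fold change was 0.00 in cGAS KO against WT, with 3 of 6 positive. It was -0.20 in STING KO against WT (1 of 6 positive) and -0.14 between the knockouts (0 of 6). Beside these, 51.5%, 50.6% and 48.9% of all genes were negative. Cldn5 was at 21.5, 18.1 and 5.16 CPM in WT, at 23.8, 17.0 and 19.7 CPM in cGAS KO and at 25.1, 8.36 and 21.6 CPM in STING KO. The lowest values, 5.16 and 8.36 CPM, were in libraries of low complexity, and the other 6 ranged 1.38-fold. Its log2 fold change against WT was 0.43 in cGAS KO (SE 0.52) and 0.29 in STING KO (SE 0.52) with 9 libraries, and 0.14 (SE 0.18, 95% interval -0.28 to 0.55) and 0.23 (SE 0.18, interval -0.18 to 0.65) with 6.

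Ocln, the other strand protein of the tight junction, was at 15.6, 12.2 and 6.72 CPM in WT, at 10.6, 9.43 and 13.0 CPM in cGAS KO and at 9.51, 11.8 and 7.83 CPM in STING KO. These overlapped, and the log2 fold change in STING KO of -0.25 became -0.69 with 6 libraries (SE 0.22, unadjusted p = 0.0139, adjusted p = 0.66 by edgeR), where 9.51 and 7.83 CPM stand against 15.6 and 12.2 CPM. Tjp1, which encodes ZO-1 and links the strands to actin, was at 127, 142 and 182 CPM in WT, at 116, 184 and 167 CPM in cGAS KO and at 121, 161 and 147 CPM in STING KO. It is a long transcript that other cells of the brain also make, and its highest value in each group was in the library of low complexity.

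Cdh5, the cadherin of endothelial adherens junctions, was at 16.3, 16.6 and 12.2 CPM in WT, at 14.4, 14.4 and 19.2 CPM in cGAS KO and at 14.2, 10.5 and 14.6 CPM in STING KO. Pecam1, the adhesion molecule CD31, was at 22.8, 20.4 and 20.4 CPM in WT, at 20.6, 18.0 and 23.1 CPM in cGAS KO and at 18.3, 18.5 and 18.8 CPM in STING KO. STING KO lay below every WT library in Pecam1, with a log2 fold change of -0.19 (SE 0.18, unadjusted p = 0.298 by edgeR). Esam, another adhesion molecule of endothelial contacts, was at 21.5, 19.9 and 15.7 CPM in WT, at 20, 13.0 and 18.8 CPM in cGAS KO and at 18.8, 10.8 and 18.7 CPM in STING KO, and its 6 other libraries ranged only 1.15-fold.

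Among the other endothelial surface and secreted proteins, Vwf had higher mean levels in both knockouts, 39.2 ± 5.0 CPM in cGAS KO and 40.3 ± 9.28 CPM in STING KO against 28.4 ± 4.67 CPM in WT. Vwf, von Willebrand factor, the clotting protein stored in endothelial granules (chromosome 6, 125546774 to 125686679, plus strand, 56 exonic blocks), was at 23.1, 30.1 and 32.0 CPM in WT, at 33.9, 39.8 and 43.8 CPM in cGAS KO and at 31.6, 50.1 and 39.2 CPM in STING KO. Every cGAS KO library lay above WT, and 1 STING KO library lay just under the highest WT library, 31.6 against 32.0 CPM. The log2 fold change was 0.46 (SE 0.22, unadjusted p = 0.0618) in cGAS KO and 0.51 (SE 0.22, unadjusted p = 0.0451) in STING KO by edgeR, with an adjusted p of 1. With 6 libraries it was 0.55 (unadjusted p = 0.0254, adjusted p = 0.971) and 0.41 (unadjusted p = 0.0724), and it was positive under all alternatives, from 0.35 to 0.56 and from 0.33 to 0.65.

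Spock2 was at 713, 780 and 768 CPM in WT, at 855, 1045 and 1053 CPM in cGAS KO and at 826, 787 and 798 CPM in STING KO. All cGAS KO libraries lay above all others, and STING KO lay narrowly above WT. In cGAS KO the log2 fold change was 0.39 (SE 0.17, unadjusted p = 0.0501 by edgeR), and in STING KO 0.09 (unadjusted p = 0.602). Podxl, a sialoglycoprotein of the luminal surface, was at 32.2, 34.8 and 44.9 CPM in WT, at 37.9, 40.8 and 60.5 CPM in cGAS KO and at 37.1, 44.2 and 38.7 CPM in STING KO. Its log2 fold change in cGAS KO was 0.32 with 9 libraries and 0.56 with 6 (unadjusted p = 0.0286, adjusted p = 0.971), where 37.9 and 60.5 CPM stand against 32.2 and 34.8 CPM.

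Bsg was at 331, 246 and 113 CPM in WT, at 318, 228 and 314 CPM in cGAS KO and at 302, 165 and 297 CPM in STING KO. Itm2a was at 57.0, 59.0 and 23.5 CPM in WT, at 60.9, 23.3 and 57.7 CPM in cGAS KO and at 48.7, 26.5 and 45.3 CPM in STING KO. Pltp, the phospholipid transfer protein, was at 70.7, 53.0 and 23.6 CPM in WT, at 60.4, 48.5 and 71.5 CPM in cGAS KO and at 59.6, 40.6 and 63.0 CPM in STING KO. In these 3 genes the library of low complexity was the lowest of each group, and the groups overlapped. With 6 libraries Itm2a had a log2 fold change of -0.31 in STING KO against WT (SE 0.13, unadjusted p = 0.0391, adjusted p = 0.701) and of -0.34 against cGAS KO (unadjusted p = 0.0262, adjusted p = 0.926 by edgeR). Of the exonic bases of Pltp, 19.3% overlap Ctsa on the other strand, and the strand setting of the counting is not given.

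Emcn, a sialomucin of capillaries and veins, was at 8.44, 5.64 and 4.24 CPM in WT, at 6.56, 4.83 and 6.75 CPM in cGAS KO and at 5.78, 6.13 and 4.70 CPM in STING KO. Ly6c1, a surface antigen of brain capillaries, was at 41.2, 45.9 and 7.92 CPM in WT, at 40.5, 7.09 and 23.1 CPM in cGAS KO and at 29.3, 10.6 and 31.8 CPM in STING KO. Ly6a, its relative known as Sca-1, was at 17.7, 17.4 and 4.74 CPM in WT, at 16.5, 3.32 and 10.7 CPM in cGAS KO and at 14.3, 9.62 and 17.5 CPM in STING KO. Both Ly6 genes were lowest in the libraries of low complexity. They are interferon-inducible in many tissues, and a link of their values to interferon was not tested. With 9 libraries Ly6c1 had log2 fold changes against WT of -0.43 in cGAS KO and -0.41 in STING KO (SE 0.72 in both). Those of Ly6a were -0.39 and 0.05 (SE 0.6 in both). With 6 libraries the 2 genes were at -0.45 and -0.37 in cGAS KO and at -0.51 and -0.15 in STING KO. The unadjusted p with 6 libraries was 0.0619 or more by edgeR. Of the 50-base stretches of Ly6c1 32.8% are shared with other Ly6 genes, and of Ly6a 19%, so both are uncertain.

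Egfl7, a secreted factor of growing vessels and the host gene of miR-126, was at 15.6, 13.3 and 1.20 CPM in WT, at 14.4, 4.53 and 7.07 CPM in cGAS KO and at 18.3, 3.21 and 13.2 CPM in STING KO, a 15.3-fold range over 9 libraries. The transcription factor Sox17, which acts in arterial endothelium and the barrier, was at 10.3, 9.18 and 6.01 CPM in WT, at 10.6, 8.98 and 7.01 CPM in cGAS KO and at 9.58, 6.69 and 10.6 CPM in STING KO. Foxq1 was at 2.62, 1.45 and 1.06 CPM in WT, at 2.32, 1.66 and 1.64 CPM in cGAS KO and at 2.61, 1.67 and 3.02 CPM in STING KO, on 15 to 58 counts. All groups overlapped in these 3 genes. The exons of Foxq1 overlap those of A530084C06Rik on the other strand over 66.1% of their bases, so reads of the pair may be mixed.

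Of the pericyte genes, Rgs5 (chromosome 1, 169655501 to 169695813, plus strand) was at 147, 163 and 197 CPM in WT, at 121, 142 and 160 CPM in cGAS KO and at 103, 169 and 91.1 CPM in STING KO. The libraries of low complexity were the highest of WT and of STING KO, and with them the groups overlapped. Relative to WT its log2 fold change in STING KO was -0.49 (SE 0.25, unadjusted p = 0.083) with 9 libraries and -0.68 (SE 0.17, unadjusted p = 0.00308, adjusted p = 0.558) with 6. Without STING KO replicate 2 alone the value was -0.80. Between the knockouts the value was -0.22 with 9 libraries and -0.54 with 6 (unadjusted p = 0.0109, adjusted p = 0.926 by edgeR).

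Pdgfrb, the receptor that holds pericytes to the endothelium (chromosome 18, 61045150 to 61085061, plus strand), was at 34.4, 34.3 and 38.6 CPM in WT, at 38.5, 42.9 and 52.1 CPM in cGAS KO and at 33.6, 37.1 and 34.8 CPM in STING KO. Every STING KO library lay below every cGAS KO library, while WT and STING KO covered nearly the same range. The log2 fold change between the knockouts was -0.34 (SE 0.17, unadjusted p = 0.0719 by edgeR) with 9 libraries and -0.41 (SE 0.17, unadjusted p = 0.0416, adjusted p = 0.926) with 6. In cGAS KO against WT it was 0.31 (unadjusted p = 0.0916) and 0.40 (unadjusted p = 0.0443, adjusted p = 0.971), and in STING KO against WT it was -0.03 with a 95% interval of -0.40 to 0.35.

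Vtn, which encodes the matrix protein vitronectin and is made by brain pericytes, was at 47.3, 47.0 and 22.6 CPM in WT, at 53.1, 54.9 and 68.0 CPM in cGAS KO and at 54.7, 39.2 and 56.9 CPM in STING KO. cGAS KO lay above every WT library, and WT replicate 3 lay far under the other WT libraries. The log2 fold change in cGAS KO was 0.59 (SE 0.29, unadjusted p = 0.0685 by edgeR), and it was 0.36 with 6 libraries (unadjusted p = 0.041, adjusted p = 0.971) and 0.31 without WT replicate 3 alone.

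Abcc9, the sulfonylurea receptor of the pericyte potassium channel, was at 15.7, 15.7 and 25.8 CPM in WT, at 14.7, 19.2 and 19.8 CPM in cGAS KO and at 14.5, 26.1 and 16.5 CPM in STING KO. Anpep, the aminopeptidase CD13, was at 4.65, 4.24 and 3.04 CPM in WT, at 3.54, 2.94 and 5.04 CPM in cGAS KO and at 3.36, 1.53 and 2.91 CPM in STING KO. Higd1b, a marker of brain pericytes, was at 2.66, 1.5 and 0.424 CPM in WT, at 2.26, 0.755 and 1.83 CPM in cGAS KO and at 2.55, 1.25 and 2.12 CPM in STING KO. The groups of these 3 genes overlapped in every comparison with 9 libraries.

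Among the smooth muscle genes, Myh11, the smooth muscle myosin heavy chain (chromosome 16, 14194535 to 14291372, minus strand, 43 exonic blocks), was at 10.3, 10.5 and 11.1 CPM in WT, at 6.96, 7.40 and 14.1 CPM in cGAS KO and at 7.52, 4.74 and 6.60 CPM in STING KO. STING KO lay below WT in every library, and cGAS KO spread to both sides of WT. The log2 fold change in STING KO was -0.76 (SE 0.32, 95% interval -1.48 to -0.04, unadjusted p = 0.0416, adjusted p = 1) with 9 libraries and -0.56 (SE 0.32, unadjusted p = 0.115) with 6 by edgeR. It was negative under all alternatives, from -0.90 to -0.56.

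Acta2, smooth muscle alpha-actin, was at 8.31, 7.14 and 2.05 CPM in WT, at 8.24, 4.08 and 12.4 CPM in cGAS KO and at 6.78, 5.37 and 7.83 CPM in STING KO. Its fold changes against WT were 0.49 (SE 0.53) and 0.18 (SE 0.53) on the log2 scale, and cGAS KO replicate 3 was the highest library of Acta2 and of Myh11. Notch3, the Notch receptor of mural cells, was at 36.6, 36.4 and 68.3 CPM in WT, at 35.7, 74.3 and 54.6 CPM in cGAS KO and at 40.2, 119 and 31.4 CPM in STING KO, and was highest in the library of low complexity of each group. Tagln, an actin-binding protein, had 0 to 14 counts in a library (0 to 0.812 CPM), and Cnn1, calponin, 0 to 11 counts (0 to 0.778 CPM). Tagln had 6 to 14 counts in 7 libraries and was at 0 in cGAS KO replicate 2 and WT replicate 3, and Cnn1 was at 0 in cGAS KO replicate 2 and STING KO replicate 2. By the limit of 3 counts, which covers counting error only, a count of 0 allows up to 0.226 CPM in cGAS KO replicate 2, 0.212 CPM in WT replicate 3 and 0.209 CPM in STING KO replicate 2. Neither gene passed the count filter, and without it edgeR and DESeq2 called 0 of 11 mural genes in each comparison.

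**Figure D4:**
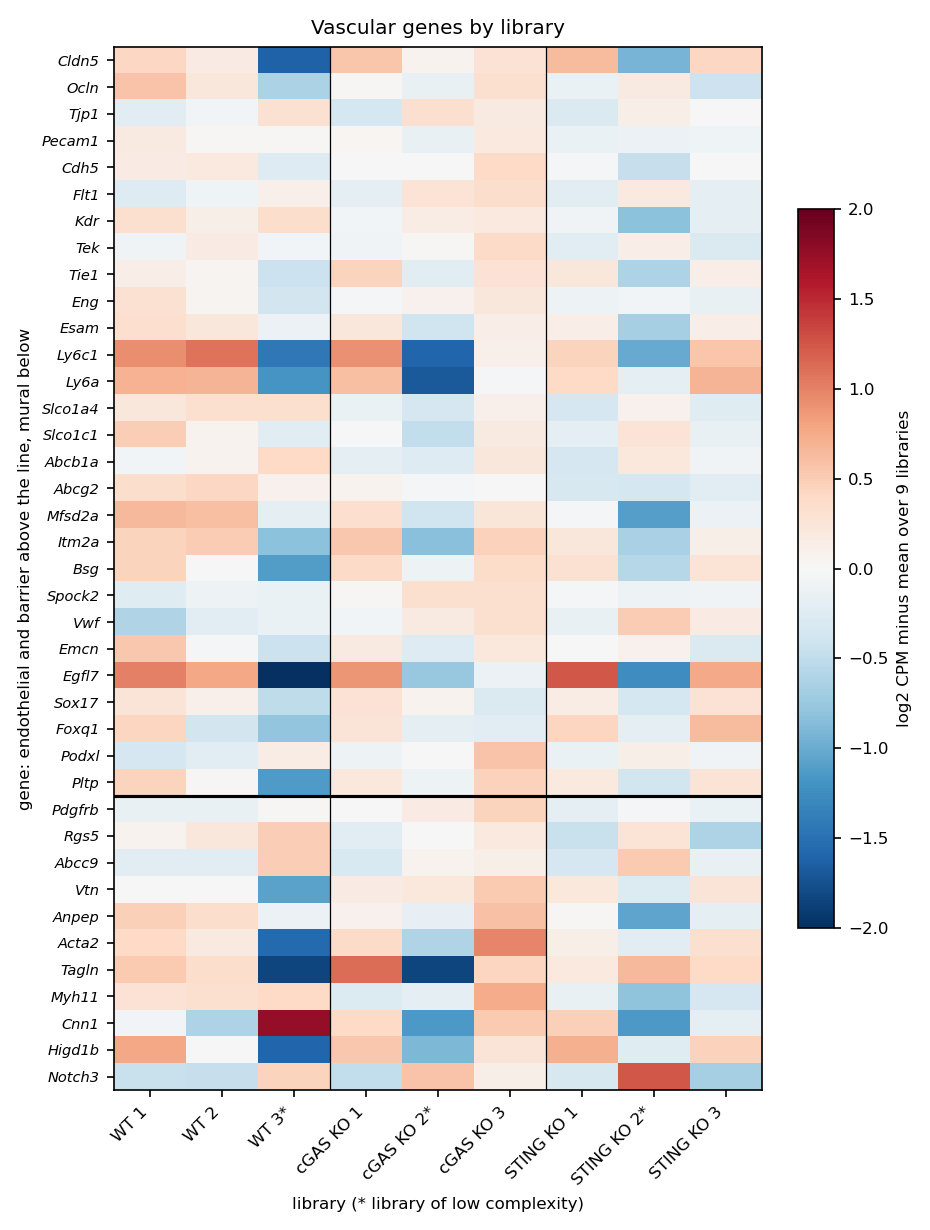
Log2 CPM of the 39 vascular genes in every library, as the difference from the gene's mean over the 9 libraries (colour, limited to 2 in each direction), with asterisks on the libraries of low complexity. The columns with asterisks differ from their neighbours in Cldn5, Ly6c1, Ly6a, Itm2a, Egfl7, Acta2, Higd1b and Notch3. Tagln and Cnn1 rest on few counts.

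The libraries of low complexity differed from the others of their group in a way that followed transcript length. In all 3 groups, 14 of the 39 genes (Cldn5, Tie1, Esam, Ly6c1, Ly6a, Abcg2, Mfsd2a, Itm2a, Bsg, Egfl7, Pltp, Anpep, Acta2 and Higd1b) were lowest in the library of low complexity, and 2 (Tjp1 and Notch3) were highest in it. The share of all genes in either order is not given here, so these counts say nothing particular about vessels. For Abcg2 the log2 differences were small, -0.06 in cGAS KO, -0.08 in STING KO and -0.3 in WT. Averaged over the 3 groups, the log2 difference of that library from the mean of the other 2 was -2.28 for Egfl7, -2.01 for Ly6c1, -1.51 for Ly6a, -1.37 for Higd1b and -1.24 for Cldn5. At the other end it was 0.39 for Rgs5, 0.54 for Abcc9 and 1.13 for Notch3.

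Ordered by the longest annotated transcript, the 9 genes under 2 kb had a median difference of -1.24 and all 9 were below 0. The 11 genes of 2 to 4 kb had a median of -0.36, the 11 of 4 to 6 kb a median of 0.05, and the 6 of 6 kb or more a median of 0.33. All protein-coding genes tested had medians of -0.83, -0.26, 0.10 and 0.49 in the same length classes, so the vascular genes followed what the whole table did. Across the 37 tested genes Spearman's rho between length and this difference was 0.85, across the 14553 protein-coding genes 0.62 and across 17806 genes of all kinds 0.42. These are relations across genes of the same libraries, which are not independent replicates, and they are given as a description. With GC content of the transcript rho was -0.26 over the 37 genes and -0.35 over all. Over libraries of all groups pooled, the median coefficient of variation was 22.9% for the 37 genes with 9 libraries and 18% with 6. For all genes tested it was 28.7% and 16.5%. These values include differences between the groups. What produced the low complexity was not tested.

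**Figure D5:**
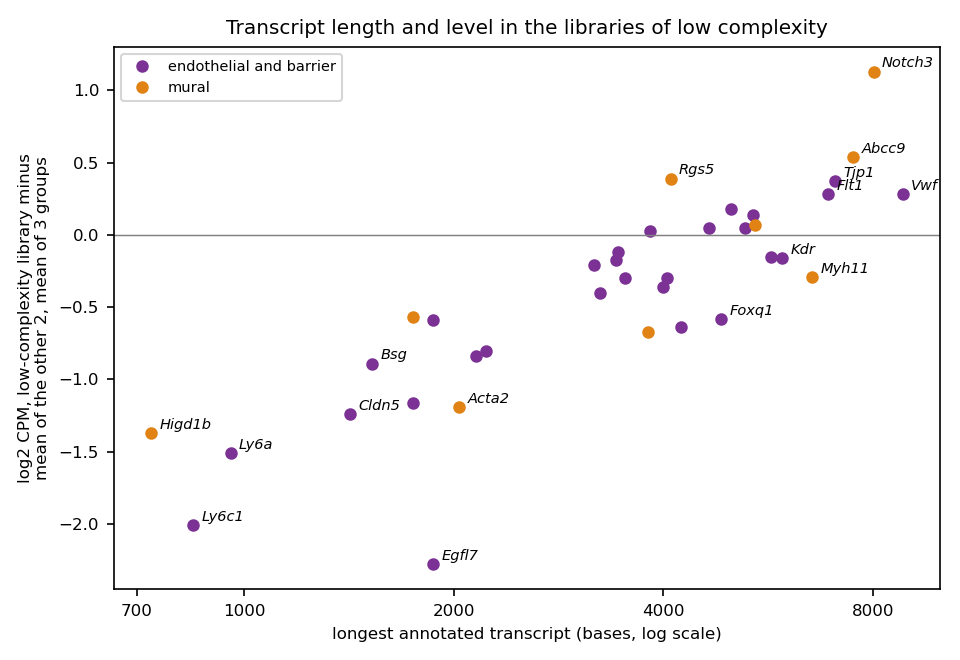
Log2 difference between the library of low complexity and the mean of the other 2 libraries of its group, averaged over the 3 groups (vertical axis), against the length of the longest annotated transcript on a log axis, for the 37 tested genes. Short transcripts such as Ly6c1, Ly6a, Higd1b and Cldn5 lie below 0, and long ones such as Notch3 and Abcc9 lie above.

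Lists of other vascular genes were read from the same fit, and 0 of their genes passed over all genes in any comparison. These lists were chosen with earlier results of these data known. Of 13 further junction genes, 4, 3 and 2 had positive fold changes in cGAS KO against WT, STING KO against WT and STING KO against cGAS KO, with medians of -0.03, -0.12 and -0.08. Nectin2, an adhesion molecule of adherens junctions, was at 2.63 ± 0.254 CPM in WT and had a mean of 4.11 ± 0.867 in cGAS KO, without overlap. By edgeR its log2 fold change was 0.65 (unadjusted p = 0.12), and 0.76 with 6 libraries (unadjusted p = 0.0303, adjusted p = 0.971). In STING KO it was 0.54 (unadjusted p = 0.183) with overlap, and 0.84 with 6 libraries (unadjusted p = 0.0192, adjusted p = 0.679). Cgn went the other way in cGAS KO, at -0.92 (unadjusted p = 0.1), and -0.27 with 6 libraries.

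Of 16 further barrier transporters and uptake receptors, 4, 3 and 6 had positive fold changes, with medians of -0.09, -0.17 and -0.04. Slc38a3 was higher in STING KO, at 80.9, 92.2 and 119 CPM against 93.6, 61.7 and 55 CPM in WT, with overlap. Its log2 fold change was 0.47 (SE 0.23, unadjusted p = 0.069 by edgeR), and 0.36 with 6 libraries (unadjusted p = 0.161). Tfrc, the transferrin receptor that brings iron across the barrier and that other brain cells also express, was at 112, 109 and 153 CPM in WT and at 86.2, 76.4 and 99.1 CPM in cGAS KO, without overlap. Its log2 fold change of -0.51 (SE 0.19, unadjusted p = 0.0234) became -0.25 with 6 libraries (unadjusted p = 0.107). Slc19a3, the thiamine carrier, was at 6.05, 6.66 and 6.86 CPM in WT and at 4.17, 4.46 and 4.64 CPM in STING KO, without overlap, and its log2 fold change was -0.56 (SE 0.24, unadjusted p = 0.0414) and -0.53 with 6 libraries. Slc2a1, which encodes the glucose carrier GLUT1, was at 154, 142 and 162 CPM in cGAS KO against 123, 140 and 130 CPM in STING KO, without overlap, a log2 fold change of -0.22 (unadjusted p = 0.159 by edgeR) that was -0.32 with 6 libraries (unadjusted p = 0.031, adjusted p = 0.926).

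Of 22 tested genes of vascular growth and Notch signalling, 17, 17 and 13 had positive fold changes, with medians of 0.09, 0.21 and 0.09, the last of which was -0.01 with 6 libraries. Jag2, a Notch ligand, was at 34.1, 37.6 and 38.3 CPM in WT and at 57.5, 47.1 and 49.8 CPM in STING KO, without overlap. By edgeR its log2 fold change was 0.49 (SE 0.21, unadjusted p = 0.0408) and 0.58 with 6 libraries (unadjusted p = 0.00896, adjusted p = 0.645). Dll4, the Notch ligand of endothelial tip cells, was at 3.70, 2.20 and 1.63 CPM in WT and at 5.29, 3.97 and 3.75 CPM in STING KO, also without overlap (log2 fold change 0.78, SE 0.38, unadjusted p = 0.0718).

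The list of Wnt signalling and barrier transcription factors had 14, 12 and 7 of 23 positive fold changes, with medians of 0.11, 0.00 and -0.14, and 0.04, -0.09 and -0.17 with 6 libraries. Wnt7a, a ligand that neural cells send to the endothelium to induce the barrier, was at 16.5, 13.1 and 8.56 CPM in WT and at 20.8, 16.2 and 22.2 CPM in cGAS KO. These overlapped, with a log2 fold change of 0.63 (SE 0.26, unadjusted p = 0.0384 by edgeR) that was 0.54 with 6 libraries. Apcdd1, a Wnt target of brain endothelium that restrains the pathway, was at 27.9, 20 and 29.9 CPM in STING KO, below 33.2, 40.8 and 38.3 CPM in cGAS KO, with a log2 fold change of -0.53 (SE 0.19, unadjusted p = 0.0224) and of -0.31 with 6 libraries (unadjusted p = 0.0801).

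Genes of activated or leaky endothelium, such as adhesion molecules for leukocytes, were tested for 15 of 21. Positive fold changes were found for 6, 7 and 7, with medians of -0.03, -0.03 and -0.01 that were -0.03, 0.26 and 0.02 with 6 libraries, and 0 of the 15 had an unadjusted p under 0.05 with 9 libraries, beside 2.03%, 1.63% and 1.45% of all genes, shares at which a list of this size would hold few or none. Mmp3, a matrix protease named here after its values were seen, was at 0 in every library. Thbd, the thrombin receptor thrombomodulin, was at 7.23, 8.21 and 18.9 CPM in WT, at 8.24, 5.58 and 6.75 CPM in cGAS KO and at 8.39, 14.8 and 10.1 CPM in STING KO, and 18.9 and 14.8 CPM were in libraries of low complexity.

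In the PDGF and TGF-beta list, 9, 10 and 8 of 17 genes had positive fold changes, with medians of 0.06, 0.03 and -0.04, and 0.01, -0.11 and -0.07 with 6 libraries. Pdgfd, a ligand of the receptor encoded by Pdgfrb, was at 7.36, 4.24 and 2.55 CPM in WT and at 2.24, 2.09 and 2.07 CPM in STING KO, without overlap. By edgeR the log2 difference was -1.15 (SE 0.42, unadjusted p = 0.0218), and -1.43 with 6 libraries (unadjusted p = 0.00353, adjusted p = 0.558). Pdgfra, which marks oligodendrocyte precursors and fibroblasts more than mural cells, was at 72.1, 76.9 and 84.3 CPM in WT and at 60.1, 57.8 and 54.3 CPM in STING KO (log2 fold change -0.44, SE 0.16, unadjusted p = 0.0204).

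Of 17 tested genes among the other pericyte and smooth muscle genes, 12, 7 and 6 had positive fold changes, with medians of 0.13, -0.06 and -0.13, and -0.05, -0.17 and 0.01 with 6 libraries. Srf, the serum response factor, which acts in smooth muscle and also in neurons, was at 55.2, 54.0 and 45.2 CPM in WT, at 72.1, 69.5 and 71.0 CPM in cGAS KO and at 83.8, 66.9 and 80.4 CPM in STING KO. Both knockouts lay above every WT library. Fitted log2 fold changes were 0.46 (SE 0.16, unadjusted p = 0.0153) in cGAS KO and 0.58 (SE 0.16, unadjusted p = 0.00436, adjusted p = 1 by edgeR) in STING KO, and with 6 libraries 0.39 and 0.59 (unadjusted p = 0.000986, adjusted p = 0.447). Mylk, the myosin light chain kinase of smooth muscle, was at 12.5, 13.2 and 14.1 CPM in WT, at 11.1, 15.7 and 13.4 CPM in cGAS KO and at 10.9, 8.99 and 7.77 CPM in STING KO. STING KO lay below both other groups, with log2 fold changes of -0.52 against WT (unadjusted p = 0.0439) and -0.53 against cGAS KO (unadjusted p = 0.0406), which were -0.46 and -0.39 with 6 libraries (unadjusted p = 0.0736 and 0.123).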

How the data were processed

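Polyadenylated RNA of striatum was isolated with Trizol and read from both ends on a HiSeq instrument, per the labels' protocols. The submitters' processing notes name HISAT2, featureCounts and mm10, without versions; how the counting treated strand and shared reads is not stated there. The authors deposited raw counts per gene, whole numbers with no sign of normalization. Of 54532 Ensembl IDs, 54495 matched GENCODE M21 on GRCm38. The titles give each library's group and replicate number.

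Testing used edgeR 4.0.16 in R 4.3.3 (quasi-likelihood F test, TMM, filterByExpr, all 9 libraries in 1 fit, 17821 genes, Benjamini-Hochberg over all of them, threshold 0.05). Unadjusted and adjusted p-values in the text are from that fit or its repeat on 6 libraries. The scripts were tested on simulated data. The difference of a library of low complexity used log2 CPM with a prior count of 2. Shared stretches are 50-base windows of annotated transcripts. RefSeq promoter windows matched 26 genes by symbol, and protein sequences were not used here.

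The genes, the lists and the split by complexity were chosen with earlier results of these data known. By rule, every library was given for the 4 vascular genes of smallest p in each comparison, up to 4 without overlap between groups, the 4 endothelial and 4 mural genes highest per kilobase in WT, and the defining markers. The other vascular genes were added after their values were seen. Further lists could contribute the 2 genes of smallest p per comparison. As alternatives, DESeq2 1.42.0, limma-voom 3.58.1, other scaling factors and filters, fits of only the groups compared, a block for the replicate number, and fits without each library or without the 3 of low complexity were run. By a chi-square test of their counts, libraries of 1 group all differed beyond sampling noise.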

Additional observations from a re-analysis of the deposited data

How the results depend on the processing

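Over 19 alternatives, of which leaving out the 3 libraries of low complexity was added after the data were seen, 0 of 1776 values of single vascular genes passed the threshold and 131 had the other sign than with all 9 libraries. The lowest adjusted p of any vascular gene was 0.96 in cGAS KO against WT, 0.447 in STING KO against WT and 0.926 between the knockouts. Counts of all genes called did depend on the setting. DESeq2, run without a count filter, called 1, 10 and 8 genes in cGAS KO relative to WT, STING KO relative to WT and STING KO relative to cGAS KO. Without a count filter the number called by edgeR was 4 for STING KO relative to WT and 4 relative to cGAS KO, and without the 3 libraries of low complexity it was 4 and 3. The mural median in STING KO against cGAS KO was -0.41 without those 3 libraries, against -0.22 with all. Leaving out 1 library at a time, the mural median in STING KO against WT ranged from -0.29 (without STING KO replicate 2) to 0.13, and the endothelial median from -0.26 to 0.03. The endothelial median in cGAS KO against WT ranged from -0.11 (without WT replicate 3) to 0.18 (without WT replicate 1).

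Whether the replicate numbers pair the libraries could not be decided. The 9 same-numbered pairs had correlations of their deviations from the group means between -0.447 and 0.502. The 18 pairs of different numbers ranged from -0.516 to 0.533. The highest value joined cGAS KO replicate 2 and WT replicate 3, both of low complexity. The libraries of low complexity do not share 1 number, and their difference from the others enters these correlations. With the replicate number as a block 0 genes were called in each comparison, and the endothelial medians were 0.03, -0.11 and -0.17. Depth and the number of libraries limit what could be seen: the smooth muscle genes Tagln and Cnn1 had at most 14 and 11 counts in a library, and for Egfl7, Ly6c1 and Higd1b the error with 9 libraries exceeded 0.6 on the log2 scale.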
